A study of Mus musculus with 23 samples.

Results

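The 10 genes described here carry or restrain the Hedgehog signal downstream of the receptor. They are Smo, Sufu, Kif7, Gpr161, Spop, Stk36, Prkaca, Prkar1a, Gsk3b and Arrb2. Every probe set of the array annotated to 1 of these 10 symbols was taken, which gave 27 of 45101 probe sets and 10 of 18193 genes with a symbol of their own, and 24 of the 27 were bright enough to test (over the array's 40th percentile on 2 or more arrays). The 3 that were not are the third probe set of Smo (1442215_at), the second of Gpr161 (1447353_at) and the second of Stk36 (1453584_at). All samples were medulloblastomas from Ptch+/-HIC+/- mice, dissociated and grown under the skin of the flank of nude (nu/nu) mice, and the hosts were dosed with NVP-LDE225, a Smoothened antagonist, or with vehicle. The resistant tumours were taken under 160 mg/kg (3 arrays) or under 40 mg/kg (3 arrays), with no stated time since dosing. Sensitive tumours were taken 4, 8, 24 and 48 h after the drug at 40 mg/kg, with 3 arrays at each time. The controls were 2 tumours collected 4 h after vehicle and 3 vehicle tumours with no stated time, 23 arrays in all. Control and treated tumours thus share the genotype and the host, and nude mice lack T cells but keep macrophages and other host cells. No 8, 24 or 48 h vehicle sample was analysed here, so the 8 h arrays were set against the 4 h vehicle and the 24 and 48 h arrays against the vehicle with no stated time. For 6 of the 12 short-term treated arrays (2 at 4 h, 3 at 8 h and 1 at 24 h) the source label says resistant, whereas the description and the tumour status place them in the sensitive series, and these were followed.

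Smoothened is a membrane protein that is held inactive by the receptor Patched and moves into the primary cilium when Patched is switched off. Its activity releases the GLI transcription factors from Sufu, which holds them in the cytoplasm, and from phosphorylation by protein kinase A, glycogen synthase kinase 3 and casein kinase 1, which marks GLI proteins for processing into repressors. In granule neuron progenitors of the cerebellum this route drives proliferation, and its constant activity after loss of Patched gives rise to medulloblastoma. Most of the signal is passed by protein modification and movement, so the RNA levels below measure the abundance of transcripts and not the activity of the proteins.

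MAS5 signal on a linear scale had a trimmed mean of 150 on every array, and the array medians lay between 33.9 and 46.7. The 12 of 12 listed markers of granule neuron progenitors and medulloblastoma, such as Atoh1, Zic1 and Barhl1, were above the 40th percentile on every array of every group. A probe set is called changed here at a limma p-value, adjusted by Benjamini-Hochberg over 35069 tested probe sets, under 0.05; each gene is counted by its brightest probe set. Differences are between means of log2(signal + 16), which understates changes of dim probe sets, and each value in parentheses after a difference is an adjusted p of that fit unless it is named otherwise. Whether replicate arrays stand for separate animals is not stated in the labels; the p-values therefore reflect only how these samples spread, which may be technical, and the number of arrays limits the precision. The readouts of the pathway fell soon after the drug. Gli1, the transcription factor and target gene used most often as readout, averaged 100.2 ± 20.0 at 4 h and 608.2 ± 129.3 in the 4 h vehicle (SD, n = 3 and 2), a difference of -2.42 (0.0011). Ptch1, the receptor gene and also a target, averaged 1095 ± 41.7 at 4 h and 2232 ± 213.3 in the 4 h vehicle (SD, n = 3 and 2), a difference of -1.01 (0.0026). Later, at 48 h, Ptch1 averaged 257 ± 42.7, against 2713 ± 174 in the vehicle with no stated time (SD, n = 3 each), a difference of -3.33 (2.6e-14).

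Against this early fall of the readouts, most calls among the 10 transducer genes came at 24 and 48 h. At 4 h 0 of the 10 were called, where 0.348% of 14946 genes were called in either direction, and 3 of the 10 had an unadjusted limma p under 0.05. At 8 h only Stk36 was called, higher than the 4 h vehicle, beside 4.61% of all genes called and 2.12% called higher. At 24 h 4 of the 10 were called higher than vehicle and 1 lower, beside 34.1% of all genes called, 19.7% higher and 14.4% lower. At 48 h 4 were higher and 3 lower, beside 46.5% of all genes called, 25.2% higher and 21.3% lower. Counts of this size stand beside a background in which a large share of all genes was called, and they do not by themselves set the 10 genes apart. The median difference of the 10 was 0.02 at 24 h and -0.08 at 48 h, where the medians of all genes were 0.10 and 0.06. Between 48 h and 24 h directly, 2 were higher and 1 lower at 48 h, beside 25% of all genes called, 11.9% higher and 13.2% lower. The 24 h and 48 h comparisons share their vehicle arrays.

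**Figure D1:**
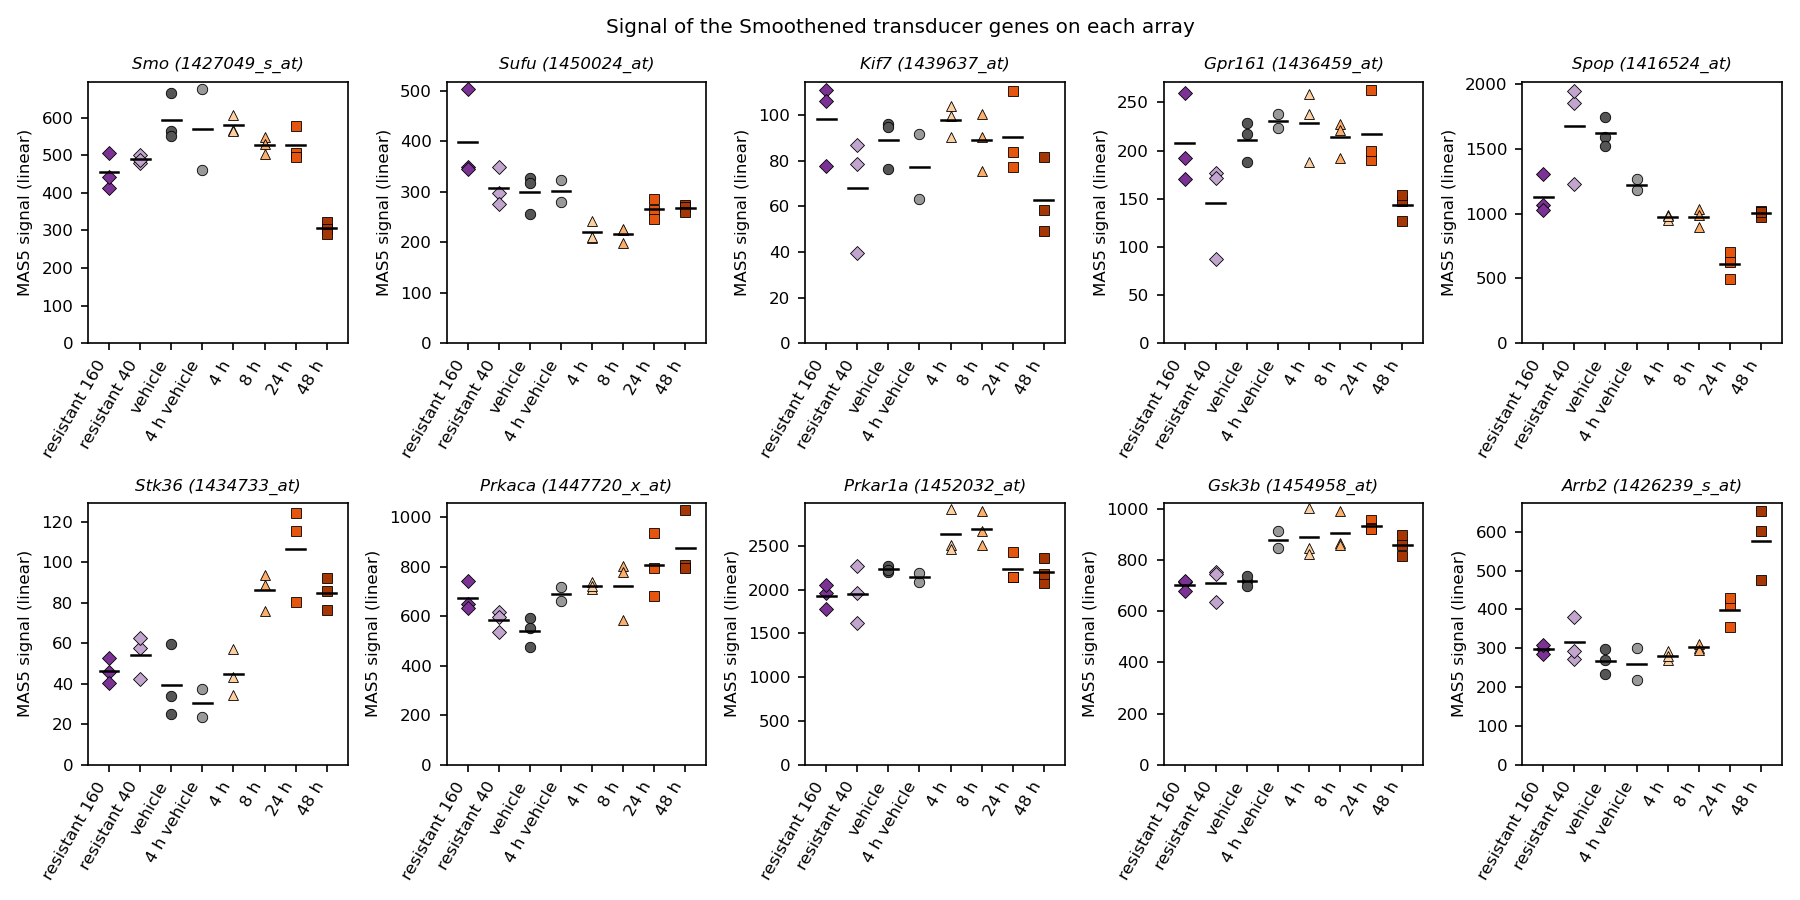
MAS5 signal (linear, each vertical axis starting at 0) of the brightest probe set of each of the 10 genes on each array, with groups along the horizontal axis; points are arrays and bars are group means. Smo is lowest on the 3 arrays of 48 h, Spop on the 3 arrays of 24 h, and Arrb2 is highest on the 3 arrays of 48 h.

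**Figure D2:**
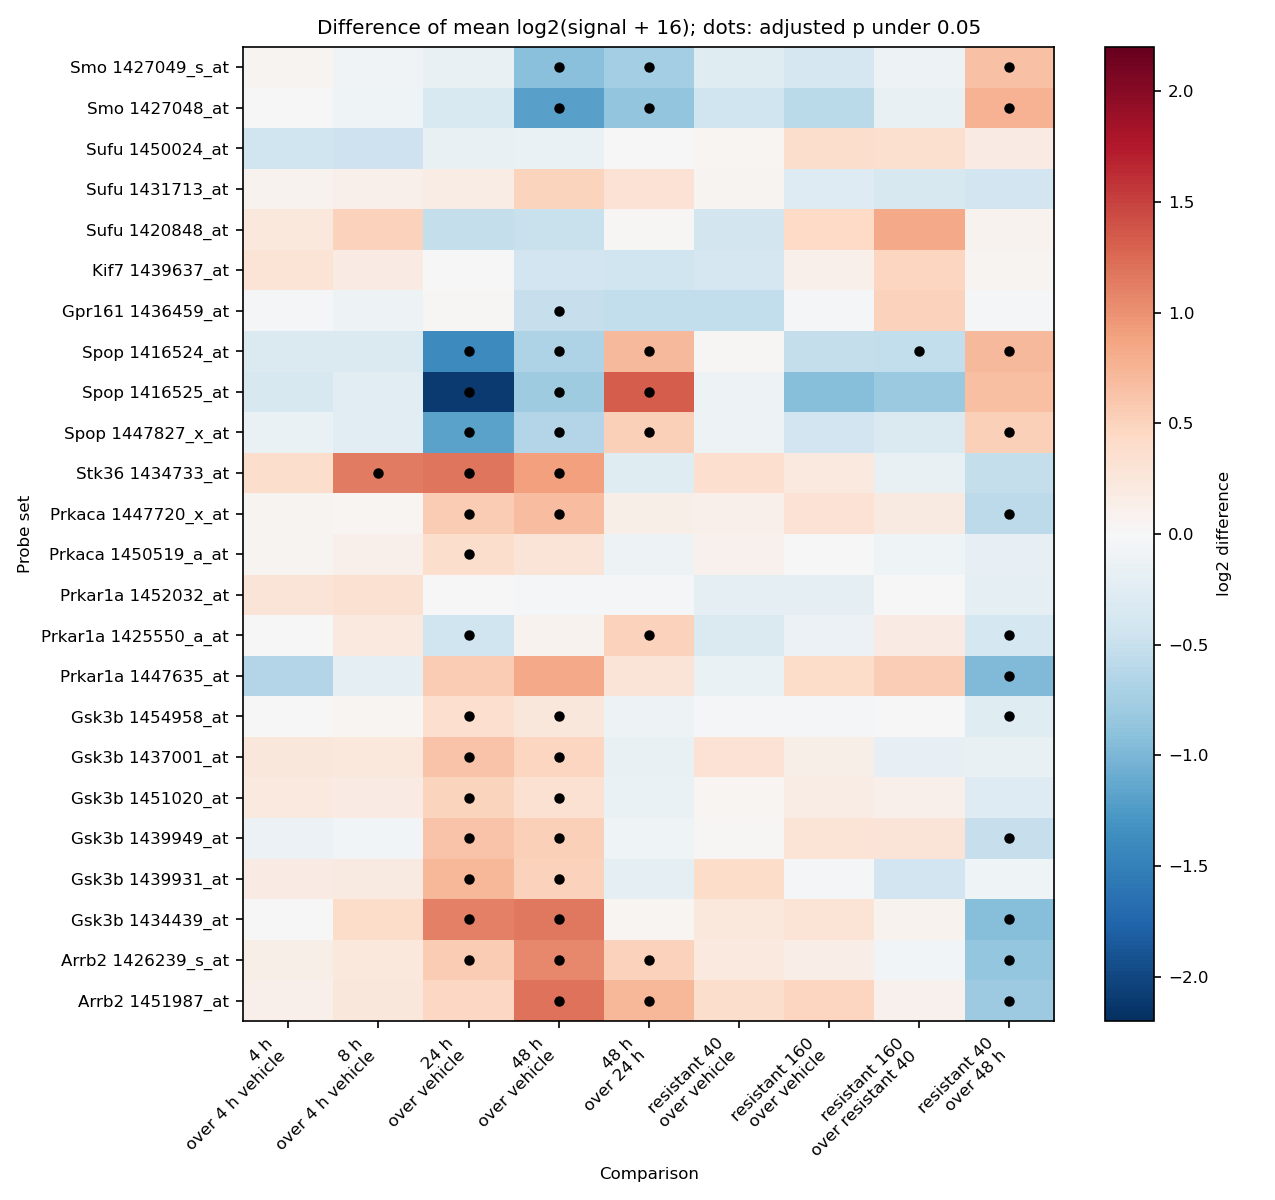
Difference of mean log2(signal + 16) for the 24 tested probe sets (rows) in 9 comparisons (columns, first-named group over second), with red for higher and blue for lower in the first-named group and a dot where the adjusted p is under 0.05. The 4 h column and both columns of a resistant group over vehicle hold 0 dots, and the 48 h column over vehicle holds 16.

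Smo (chr6:29735497-29761366, GRCm38.p6), the target of the drug, was not called at 4, 8 or 24 h and fell at 48 h. The brightest probe set, 1427049_s_at, read 607.4, 567.8 and 565.6 at 4 h, against 460.1 and 677 in the 4 h vehicle. At 8 h it read 502.7, 547.5 and 528.6 and at 24 h 506.2, 578.9 and 495. These 9 arrays lie within the range of the 5 vehicle arrays. At 48 h it read 323, 304.6 and 291.7, against 565.4, 665.7 and 550.6 in vehicle, and all 3 arrays lie below every array of the other 7 groups. The difference at 48 h was -0.92 (SE 0.12, 95% interval -1.16 to -0.67; 9.9e-07), and the difference of 48 h over 24 h was -0.75 (6.6e-05). The second probe set, 1427048_at, read 117.9, 133.5 and 121.4 at 48 h, against 283.4, 343.7 and 295.3 in vehicle, a difference of -1.20 (7.3e-06), and it followed the first with a Pearson r of 0.927 over the 23 arrays. Because the samples are bulk tissue, fewer tumour cells and less Smo RNA per cell cannot be told apart. Macrophage and microglia markers moved with this fall. Their summed signal was 34470 to 46860 at 48 h and 2061 to 3436 in vehicle, 17 of 17 tested markers were higher at 48 h, and 9 of 9 fibroblast and matrix markers were higher as well; their part in the fall of Smo was not tested. Of the 12 genes listed as granule neuron progenitor and medulloblastoma markers, 9 were higher and 2 lower than vehicle at 48 h, with a median difference of 0.59. Genes of this list moved in opposite directions. The median therefore does not stand for every gene and does not measure the amount of progenitor or tumour cells. Atoh1 averaged 1528 ± 285 at 48 h and 4101 ± 522.8 in vehicle (SD, n = 3 each). Neurod1 averaged 6435 ± 203.5 at 48 h and 304.6 ± 27.66 in vehicle (SD, n = 3 each). Over the 23 arrays, log2 Smo signal and the log2 macrophage sum had a Pearson r of -0.832, a description in which the 48 h arrays weigh heavily. The first probe set has a suffix that marks probes shared with other transcripts, so its value is uncertain to that extent. The window of 250 bases before to 50 after the Smo start is shown because Smo is the target of the drug. Capitals would mark a match to the GLI site GACCACCCA or the GC box GGGCGG on either strand. The window holds none (RefSeq, GRCm38.p6, chr6:29735247-29735546, plus strand).
Smo: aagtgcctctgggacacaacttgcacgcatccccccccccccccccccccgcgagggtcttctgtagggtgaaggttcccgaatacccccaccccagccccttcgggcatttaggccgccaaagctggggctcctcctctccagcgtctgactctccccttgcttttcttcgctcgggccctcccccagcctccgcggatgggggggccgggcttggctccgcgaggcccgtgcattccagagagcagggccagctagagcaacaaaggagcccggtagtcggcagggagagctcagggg

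Sufu (chr19:46396896-46488804), which binds GLI proteins and holds them back, and Kif7 (chr7:79698098-79715772), the kinesin that orders the tip of the cilium, were called in 0 of 9 comparisons by limma, although an unadjusted p was under 0.05 in 4 of the 9 for Sufu and 1 for Kif7. Sufu probe set 1450024_at read 241.2, 207.6 and 209.9 at 4 h, against 322.2 and 280.5 in the 4 h vehicle. At 8 h it read 223.6, 198.2 and 226. All 6 early arrays lie below both arrays of the 4 h vehicle, yet the differences of -0.43 (0.5) and -0.45 (0.13) did not pass the adjustment. Set against all 5 vehicle arrays, the 8 h difference was -0.44 (0.027). The other probe sets of Sufu were dim and did not follow it (r of -0.301 and 0.148 over 23 arrays). Kif7 probe set 1439637_at read 49.2, 81.6 and 58.3 at 48 h, against 96.4, 94.7 and 76.5 in vehicle, and the groups overlap. Its difference of -0.43 (95% interval -0.88 to 0.03; 0.14) did not pass, while after quantile normalization it was -0.64 (0.018).

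Of the 10 genes, 3 act through protein kinase A, the cAMP-dependent kinase that keeps GLI proteins in check. Gpr161 (chr1:165281184-165326747), a ciliary receptor that raises cAMP, read 127.3, 148.1 and 154.2 at 48 h, against 217.3, 228.9 and 188.1 in vehicle. The groups do not overlap and the difference was -0.51 (SE 0.20; 0.04), but the call was lost in 8 of 17 alternatives, among them without any 1 of the 3 arrays of 48 h (-0.44 with 0.14 at the weakest). Like Smo, it ran against the macrophage sum over the 23 arrays (r = -0.73). Prkaca (chr8:83972978-83996444), the catalytic subunit alpha, read 682.9, 796.1 and 937 at 24 h and 806.9, 1029.7 and 793.6 at 48 h on probe set 1447720_x_at. In vehicle it read 476.7, 591.5 and 553, below every one of those arrays. The rises were 0.56 (0.0022) at 24 h and 0.68 (0.00018) at 48 h, but against the 4 h vehicle, which read 662.4 and 719.7, they were 0.21 (0.36) and 0.33 (0.09). This probe set also has shared probes, and the other one, 1450519_a_at, differed from vehicle by 0.39 (0.043) at 24 h, a call lost in 13 of 18 alternatives, and by 0.28 (0.14) at 48 h. Prkar1a (chr11:109649023-109669663), the regulatory subunit type I alpha that holds the kinase inactive, was called by its brightest probe set in 0 of 9 comparisons (limma; unadjusted p under 0.05 in 2), with a difference of -0.02 (95% interval -0.24 to 0.19; 0.91) at 48 h. A second probe set of it, 1425550_a_at, read 765.6, 686.6 and 909.5 at 24 h, against 1075.8, 1088.3 and 1038.2 in vehicle, a difference of -0.44 (0.0098) that missed the threshold without array 2 of 24 h (-0.35, adjusted p = 0.07). At 48 h that probe set was higher than at 24 h by 0.51 (0.005). The 2 probe sets thus gave different calls at 24 h and had an r of 0.588 over the 23 arrays. The third, 1447635_at, was dim, from 1.1 to 55.2 over all arrays.

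Some other subunits of the same kinase had larger differences than the brightest probe sets of the 3 member genes. Those below were named for their small p within a list of pathway genes. Larger differences follow in part from that choice, and they do not describe the other subunits as a set. Prkar1b, the regulatory subunit type I beta, averaged 57.7 ± 7.4 at 8 h and 157.1 ± 31.8 in the 4 h vehicle (SD, n = 3 and 2; -1.22, adjusted p = 8e-04). At 24 h it averaged 34.6 ± 5.6, against 344.5 ± 28.8 in vehicle (SD, n = 3 each; -2.84, adjusted p = 3.1e-11), and at 48 h it was higher than at 24 h by 1.55 (2.5e-06). The 4 h vehicle and the other vehicle differ in this mean too, a difference that was not tested. The probe set of Prkar1b has a suffix that marks shared probes, so its values are uncertain to that extent. Its lowest mean is on the 24 h arrays, which also differ from vehicle in muscle RNA and in a measure of RNA integrity (given below). Their part in the Prkar1b values was not tested. Prkar2a, the regulatory subunit type II alpha, averaged 359.9 ± 23.1 at 48 h and 949.5 ± 50.6 in vehicle (SD, n = 3 each; -1.36, adjusted p = 4.6e-09). Prkacb, the catalytic subunit beta, averaged 1242 ± 100 at 48 h and 607.9 ± 37.2 in vehicle (SD, n = 3 each; 1.01, adjusted p = 6.9e-09). At 48 h Prkacb and the brightest probe set of Prkaca were thus higher than vehicle and Prkar2a lower. The other Prkaca probe set was not called (0.28, adjusted p = 0.14). The brightest did not pass against the 4 h vehicle (0.33, adjusted p = 0.09). Among 48 tested genes of a list of other Hedgehog transducers and regulators, limma called 0 at 4 h, where 2 had an unadjusted p under 0.05, and 1 at 8 h, Prkar1b. At 24 h 11 were higher and 8 lower, and at 48 h 9 were higher and 18 lower, with a median difference of -0.01 beside 0.06 over all genes. The background at each time is the share of all genes given above.

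Gsk3b (chr16:38089001-38246084), the kinase that phosphorylates GLI proteins after protein kinase A has primed them, was higher than vehicle at 24 h and at 48 h on all 6 of its probe sets. The brightest, 1454958_at, read 956.9, 926.1 and 921.2 at 24 h and 860.9, 817.5 and 899.6 at 48 h. In vehicle it read 719.4, 700.1 and 737.9, below all 6. The differences were 0.37 (0.0039) at 24 h and 0.25 (0.037) at 48 h. Against the 4 h vehicle, at 913.2 and 846.5, they were 0.09 (0.62) and -0.03 (0.85). The 48 h call of this probe set was lost in 9 of 17 alternatives, among them all 5 vehicle arrays as control (0.14, adjusted p = 0.21), the replicate block (0.22, adjusted p = 0.11) and the fit without array 4 of 48 h (0.22, adjusted p = 0.12). Probe set 1451020_at lost its 48 h call in 8 of 17. The dimmest probe set, 1434439_at, read 178.1, 191.3 and 108.2 at 48 h, against 57.7, 66.7 and 56.8 in vehicle, a difference of 1.16 (0.00019) that stayed past the threshold in all 17 alternatives, the 4 h vehicle included. The pairwise r of the 6 probe sets over 23 arrays ran from 0.403 to 0.828, and the size of the change from 0.25 to 1.16 at 48 h, so the probe sets do not give 1 value for the gene. Csnk1a1, casein kinase 1 alpha, which adds the next phosphates on GLI proteins, averaged 2245 ± 124 at 48 h and 4122 ± 152 in vehicle (SD, n = 3 each; -0.87, adjusted p = 5.7e-08). Csnk1g1, casein kinase 1 gamma 1, averaged 585.3 ± 53.5 at 24 h and 284.3 ± 17.7 in vehicle (SD, n = 3 each; 1.00, adjusted p = 2.9e-07).

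Spop (chr11:95414083-95493410), the substrate adaptor of a CUL3 ubiquitin ligase that marks GLI2 and GLI3 proteins for degradation, showed the deepest change of the 10 genes at 24 h and had partly returned at 48 h. Probe set 1416524_at read 949.6, 990.6 and 980.9 at 4 h, against 1268 and 1180.6 in the 4 h vehicle. At 8 h it read 1038.9, 900.2 and 989.9. All 6 arrays lie below both control arrays, but the differences of -0.33 (0.74) and -0.32 (0.35) did not pass. Set against all 5 vehicle arrays they were -0.56 (0.016) and -0.56 (0.0045). That control adds the 3 vehicle arrays with no stated time. Its adjusted p rests on spread within groups and leaves out the gap between the 2 vehicle groups, so it can be too small. At 24 h it read 626.7, 494.2 and 704.5, against 1592.1, 1743.8 and 1524.4 in vehicle, and these 3 arrays lie below all others of the series. The difference was -1.40 (SE 0.14, 95% interval -1.69 to -1.12; 3e-08), and it was -1.004 (3.2e-05) against the 4 h vehicle. At 48 h it read 974.8, 1023.5 and 1012.8, which was -0.68 (0.00031) below vehicle and 0.72 (0.00051) above 24 h. Against the 4 h vehicle the 48 h difference was -0.28 (0.17). The 2 vehicle groups do not overlap in Spop, which bears on each of these sizes. Probe set 1416525_at read 136.2, 160.7 and 193.1 at 24 h, against 800, 858.8 and 616.1 in vehicle, a difference of -2.11 (1.6e-06). The third, 1447827_x_at, read 92, 102.5 and 79.6 at 24 h, against 268.4, 183.9 and 229.2 in vehicle, a difference of -1.17 (1.1e-05). The 3 agreed in direction and their pairwise r over 23 arrays ran from 0.863 to 0.907.

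The 24 h arrays also differ from vehicle in skeletal muscle RNA and in the actin ratio, the log2 signal of the 3' probe set minus that of the 5' one, which tracks RNA integrity. The summed signal of 12 muscle markers was 11220 to 15700 at 24 h and 1021 to 11830 in vehicle, and the actin ratio averaged 1.66 ± 0.22 at 24 h and 1.04 ± 0.04 in vehicle (SD, n = 3 each). Over the 23 arrays the r of log2 Spop signal was -0.668 with the log2 muscle sum and -0.699 with the actin ratio. The r with the muscle sum was 0.596 for Prkaca, 0.54 for Stk36, 0.49 for Gsk3b and 0.429 for Arrb2, the 4 genes called higher at 24 h. Within vehicle, the array with the highest muscle sum, 11830, had a Spop signal of 1743.8, where the other 2 had sums of 1176 and 1021 and signals of 1592.1 and 1524.4. Within the resistant tumours at 40 mg/kg, the array with the highest sum, 5584, had a Spop signal of 1232, where the other 2 had sums of 371.4 and 459.5 and signals of 1856.8 and 1948.7. The part of muscle RNA and of RNA integrity in these 24 h values was not tested. The promoter window of Spop is shown beside that of Smo; capitals mark the GC box GGGCGG or its complement on the other strand, of which 5 matches were found, a pair of them overlapping, and there was no GLI site (RefSeq, GRCm38.p6, chr11:95413833-95414132, plus strand). Of 16 windows listed for 9 of the 10 genes, 0 held GACCACCCA and 9 held GGGCGG, where 0.253% and 35.7% of 32851 mouse promoter windows of the same length did. No match says only that these letters are not in these windows. The window listed for Ptch1, a target gene, held no GACCACCCA either. Some windows of Prkar1a overlap, so the counts are of windows and not of separate sites. Arrb2 was the member without an entry.
Spop: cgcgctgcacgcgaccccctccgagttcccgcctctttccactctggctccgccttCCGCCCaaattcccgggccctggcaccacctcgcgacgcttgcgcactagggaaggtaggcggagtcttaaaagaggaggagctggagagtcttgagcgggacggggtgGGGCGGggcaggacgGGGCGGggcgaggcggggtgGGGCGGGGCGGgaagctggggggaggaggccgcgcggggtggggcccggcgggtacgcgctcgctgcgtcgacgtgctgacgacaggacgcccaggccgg

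**Figure D3:**
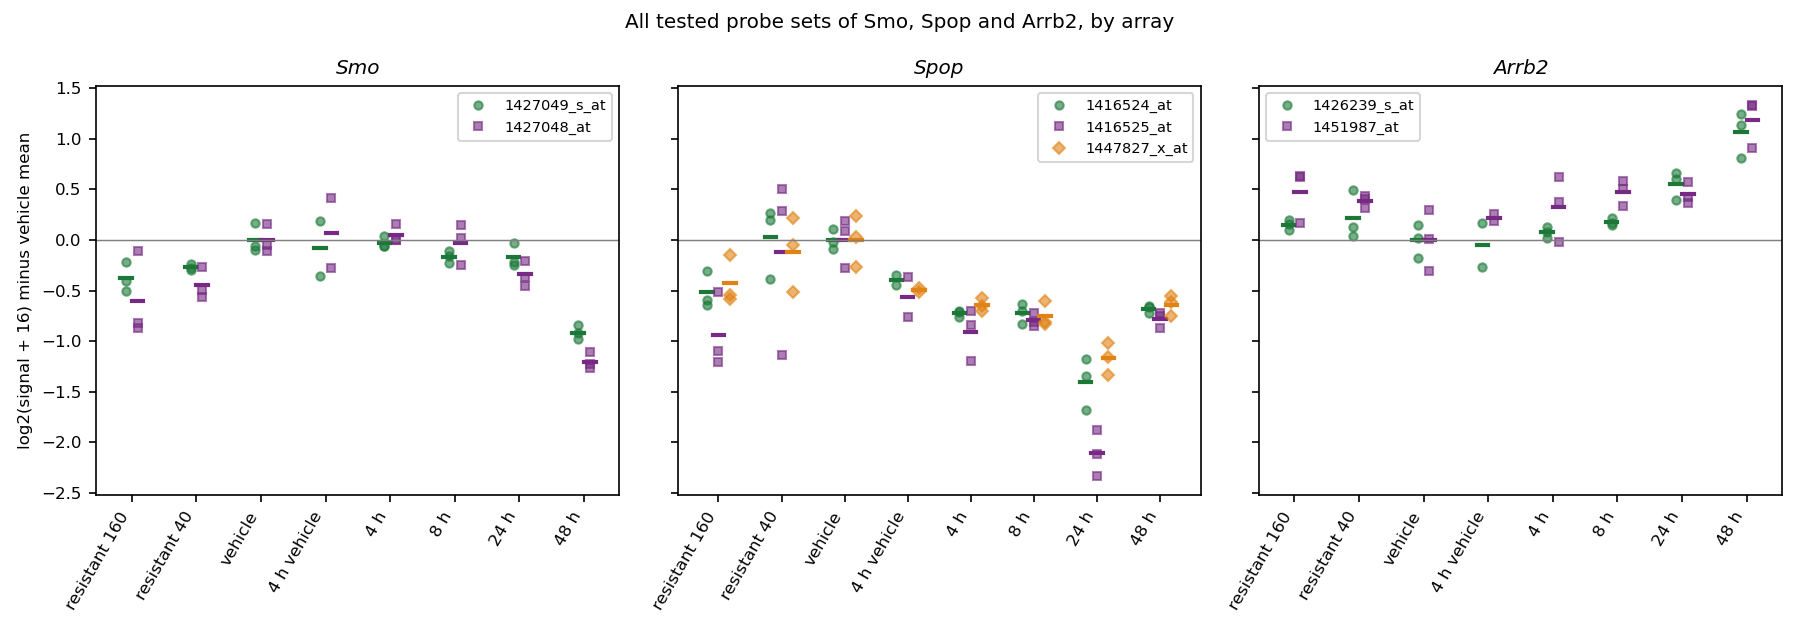
Log2(signal + 16) minus the mean of the 3 vehicle arrays (vertical axis) for every tested probe set of Smo, Spop and Arrb2, by group (horizontal axis); points are arrays and bars are group means. The probe sets of each gene move together: Smo lies lowest at 48 h (-0.92 and -1.20), Spop at 24 h (-1.40, -2.11 and -1.17) and Arrb2 highest at 48 h (1.06 and 1.19).

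Stk36 (chr1:74601391-74636894), the mouse homologue of the fly Fused kinase, which in mice is needed for motile cilia, was the only one of the 10 called at 8 h. Its probe set 1434733_at read 93.5, 88.9 and 75.8 at 8 h, against 37.3 and 23.5 in the 4 h vehicle, a difference of 1.15 (SE 0.25; 0.0095). Without array 2 of that vehicle the difference was 0.93 and no longer passed (0.19), and 8 h was not called against 4 h (0.76, adjusted p = 0.19). At 24 h it read 115.3, 124.2 and 80.2, against 25, 59.4 and 34 in vehicle, a difference of 1.17 (0.00033). At 48 h it read 85.6, 92.1 and 76.6, a difference of 0.91 (0.0024). All 9 arrays from 8 h on lie above the 5 vehicle arrays and the 3 arrays of 4 h, which read 57.2, 43.1 and 34.4. The signal is low in vehicle, where the 40th percentile of the arrays was 21.2 to 24.4, so the size of the rise depends on the offset: over the alternatives it was 0.73 to 1.48 at 24 h.

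Arrb2 (chr11:70432485-70440828), beta-arrestin 2, binds active Smoothened and helps to bring it into the cilium. Its brightest probe set, which has the suffix of shared probes, was higher than vehicle at 24 h and higher again at 48 h. Probe set 1426239_s_at read 411.1, 428.5 and 353.3 at 24 h, against 233, 270 and 296.6 in vehicle, a difference of 0.55 (0.0038). At 48 h it read 652.2, 476.6 and 602.5, a difference of 1.06 (SE 0.14, 95% interval 0.78 to 1.35; 1.1e-06). The 48 h arrays lie above all other arrays, and 48 h exceeded 24 h by 0.51 (0.0099), a step that missed the threshold without array 1 of 48 h (0.42, adjusted p = 0.07), without array 3 of 24 h (0.43, adjusted p = 0.058), with the replicate block (0.49, adjusted p = 0.054) and without the 24 h array of conflicting labels (0.54, adjusted p = 0.053). Probe set 1451987_at read 392.2, 291.4 and 397.6 at 48 h, against 116, 149 and 185 in vehicle, a difference of 1.19 (4.8e-06). At 24 h this second probe set was not called (0.45, adjusted p = 0.051), though it passed in 4 of 18 alternatives. Arrestins are abundant in blood cells of the myeloid line, and Arrb2 signal had an r of 0.778 with the macrophage sum over the 23 arrays. The part of macrophage RNA in the 24 and 48 h values was not tested.

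**Figure D4:**
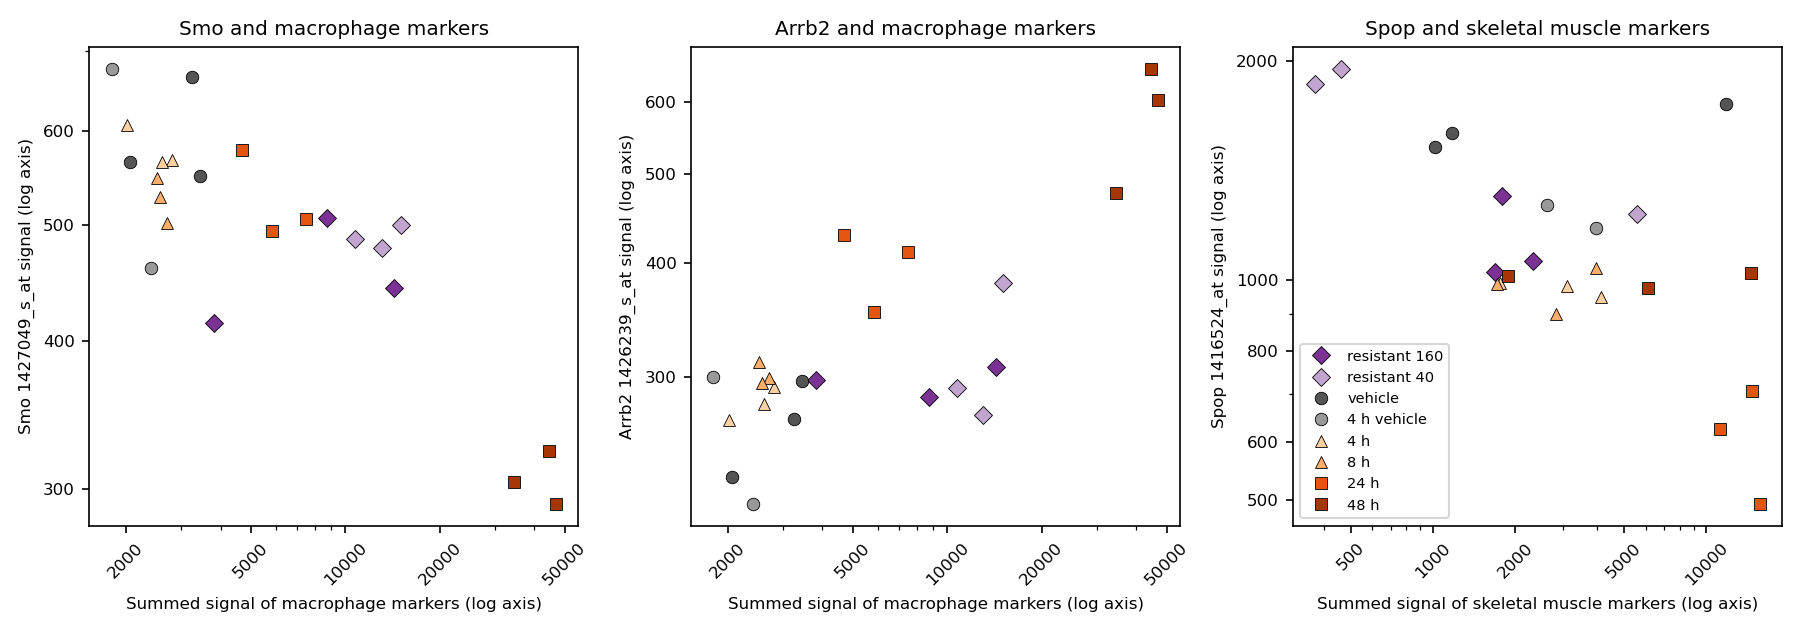
Signal of Smo and Arrb2 against the summed signal of 17 macrophage and microglia markers, and of Spop against that of 12 skeletal muscle markers, on each of 23 arrays; both axes are logarithmic and colours give the group. The 3 arrays of 48 h stand apart in the first 2 panels, with macrophage sums of 34470 to 46860, and the 3 arrays of 24 h lie lowest in the third.

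In the resistant tumours none of the 10 genes was called against vehicle. At 40 mg/kg 0 of the 10 were called against vehicle, beside 9.85% of all genes, and 2 had an unadjusted limma p under 0.05. At 160 mg/kg 0 were called, beside 1.45%, and 4 had an unadjusted limma p under 0.05. Smo read 413.9, 507.2 and 443.3 at 160 mg/kg and 500.8, 478.4 and 487 at 40 mg/kg, against 565.4, 665.7 and 550.6 in vehicle. All 6 resistant arrays lie below the 3 vehicle arrays, but the differences of -0.37 (95% interval -0.62 to -0.13; 0.14) and -0.27 (-0.51 to -0.02; 0.2) did not pass after adjustment, and array 1 of the 4 h vehicle, at 460.1, lies among them. The second probe set of Smo, 1427048_at, read 166.9, 282 and 160.6 at 160 mg/kg, against 283.4, 343.7 and 295.3 in vehicle, a difference of -0.60 (0.12). It passed against all 5 vehicle arrays (-0.63, adjusted p = 0.046) and without array 2 of 160 mg/kg (-0.84, adjusted p = 0.016). Macrophage markers moved with these values: 11 of 17 were higher than vehicle at 160 mg/kg and 15 of 17 at 40 mg/kg, and their part was not tested. Spop read 1304, 1064.6 and 1027 at 160 mg/kg, below the 1592.1, 1743.8 and 1524.4 of vehicle, a difference of -0.52 (0.07) that passed without array 1 of 160 mg/kg (-0.62, adjusted p = 0.02) and was -0.12 (0.83) against the 4 h vehicle. Its second probe set, 1416525_at, differed by -0.94 (0.098). Sufu read 503.1, 349.6 and 344.4 at 160 mg/kg, above the 327.4, 255 and 317.2 of vehicle, a difference of 0.38 (0.2). Gpr161 read 176.6, 87.5 and 171.5 at 40 mg/kg, against 217.3, 228.9 and 188.1 in vehicle, a difference of -0.55 (0.097) that passed with all 5 vehicle arrays as control (-0.60, adjusted p = 0.029). Between the resistant groups, 1 of the 10 was called, Spop, beside 2.8% of all genes called and 1.12% called lower. Its 160 mg/kg signals given above stood against 1232, 1856.8 and 1948.7 at 40 mg/kg, a difference of -0.54 (0.035). The groups overlap, since array 1 at 40 mg/kg reads low, and the call was lost in 8 of 15 alternatives. That array also had the highest muscle sum of the resistant tumours and an actin ratio of 1.46, where the other 2 of its group had 0.885 and 0.914; their part in its Spop value was not tested.

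At the same dose of 40 mg/kg, resistant tumours and sensitive tumours at 48 h differed in 5 of the 10 genes, beside 37% of all genes called. Smo and Spop were called higher in the resistant tumours, beside 17.8% of all genes, by 0.65 (0.00016) and 0.71 (0.00032). Arrb2, Prkaca and Gsk3b were called lower, beside 19.3%, with differences of -0.84 (4.4e-05), -0.57 (0.0016) and -0.27 (0.032). The call of Gsk3b was lost in 6 of 15 alternatives. Those are values of the brightest probe sets. Not called were Spop 1416525_at (0.66, 0.066), Prkaca 1450519_a_at (-0.18, 0.39) and Gsk3b 1437001_at (-0.16, 0.31), 1439931_at (-0.10, 0.72) and 1451020_at (-0.29, 0.087). Called were Smo 1427048_at (0.76, 0.002), Arrb2 1451987_at (-0.80, 0.00081) and Gsk3b 1434439_at (-0.94, 0.0023) and 1439949_at (-0.51, 0.017). Spop 1447827_x_at was also called (0.53, 0.022), a call lost in 5 of 15 alternatives. Macrophage markers moved with this comparison as well: 17 of 17 were lower in the resistant tumours, with a median difference of -1.65, and their part was not tested. The readout genes separated the same groups. Gli1 averaged 1165 ± 172 in the resistant tumours and 12.3 ± 7.4 at 48 h (SD, n = 3 each; 5.41, adjusted p = 6.1e-12), and Gli2 averaged 1042 ± 260 and 110.9 ± 12.6 (SD, n = 3 each; 3.03, adjusted p = 6.6e-14). Gli1 in the resistant tumours at 40 mg/kg did not pass against vehicle, with 1165 ± 172 and 678.8 ± 42.2 (SD, n = 3 each; 0.76, adjusted p = 0.17), nor did Ptch1 (-0.18, adjusted p = 0.58). Not every readout gene stood at the level of vehicle. Of 11 tested readout and receptor genes, limma called 3 lower than vehicle at 40 mg/kg and 0 higher. Of all 14946 genes 9.85% were called, and 666 were called lower. The 3 readout and receptor genes were Sfrp1 (-1.60, 0.00063), Hhip (-1.90, 0.0013) and Gas1 (-0.81, 0.0028). At 160 mg/kg 0 of the 11 were called, and 4 had an unadjusted limma p under 0.05. Of the other transducers, 3 of 48 were called lower than vehicle at 40 mg/kg, beside 666 of all 14946 genes. That count does not by itself set the list apart. The 3 were Dync2h1, the motor of transport back from the cilium tip (-0.44, 0.014), Prkar2a (-0.46, 0.023) and Evc, a partner of Smoothened at the base of the cilium (-0.62, 0.04). At 160 mg/kg limma called 0 of 48, and 9 had an unadjusted p under 0.05.

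Across the 23 arrays the genes fell into no single pattern. Smo and Arrb2 ran opposite to each other (r = -0.69), as did Spop and Gsk3b (-0.724) and Sufu and Prkar1a (-0.743), while Smo and Spop, both lower at 48 h, had an r of 0.054. By group means, Smo was lowest at 48 h, at 306.4, and highest in vehicle, at 593.9; the arrays of neighbouring groups in that order overlap except between 8 h and resistant 40 mg/kg and between resistant 160 mg/kg and 48 h. Spop 1416524_at was highest in resistant 40 mg/kg, at 1679, and lowest at 24 h, at 608.5. The arrays of resistant 40 mg/kg overlap those of vehicle, at 1620, and the difference was 0.025 (limma adjusted p = 0.95). Probe set 1447827_x_at was highest in vehicle, at 227.2, against 211.1 in resistant 40 mg/kg. The genes whose log2 signal was most like that of Smo over 23 arrays were Ide (r = 0.931), Cdk4 (0.925) and Khsrp (0.917). For Spop they were Eapp (0.93), Mrpl16 (0.93) and Eif6 (0.923), and for Arrb2 Dpp7 (0.959), Plekhm1 (0.953) and Dnajb14 (0.94). For Stk36 they were Iffo2 (0.901), Fbxo25 (0.901) and Klc4 (0.9), and for Gsk3b Limch1 (0.902), Thbs3 (0.887) and Necab3 (0.881). Bves (0.868), Tead1 (0.847) and Elp2 (0.828) were nearest to Gpr161, and Fosl2 (0.849), Sult4a1 (0.833) and Fgfr2 (0.811) to Sufu. Nhlh2 (0.834), Marchf8 (0.834) and Apc2 (0.833) were nearest to Prkaca, Pde6d (0.798), Plch1 (0.785) and Pxylp1 (0.777) to Prkar1a, and Klhl15 (0.72), Rfx7 (0.714) and Map4k4 (0.712) to Kif7. These correlations share arrays and group differences, and are given as description.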

How the data were processed

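The authors' deposited values are linear MAS5 signal intensity for 45101 Affymetrix probe sets on 23 arrays, each scaled to a trimmed mean of 150 as the values show; the MAS5 version is not given, per the submitters' processing notes. Per the labels' protocols, biotinylated cRNA was made from RNA of frozen tumour. Symbols come from the platform annotation table, which gives 34958 probe sets 1 symbol, 932 several and 9211 none; only those with 1 symbol were used for genes. The array named in the design text is smaller than the number of probe sets deposited.

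Control probe sets (64) were left out. Values entered as log2(signal + 16). Tested were the 35069 probe sets that exceeded the 40th percentile on 2 or more arrays. limma 3.58.1 in R 4.3.3 estimated the mean of each of 8 groups from 1 linear model, followed by eBayes with a trend (residual degrees of freedom 15, prior 8.5). P-values (two-sided) were adjusted by the Benjamini-Hochberg method, separately for the 9 comparisons, at a threshold of 0.05. Where a gene had several probe sets, the brightest by mean log2 signal over all arrays counted for it, 14946 genes in all. The fit was tested on simulated data. No 2 arrays hold identical values (r within groups 0.945 to 0.978).

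Named are the 10 genes by all their probe sets, Gli1, Ptch1 and Gli2 as readouts, up to 4 called genes with the smallest p from 2 lists of pathway genes per comparison (not all are named), and the 3 genes with the highest Pearson r to each member. The members and lists were chosen with earlier results of these data known. The fit was repeated with an offset of 1 or 64, without the filter or with it at the 60th percentile, after quantile normalization, with eBayes but no trend, on only those arrays compared, with the replicate number or the run of identifiers in the titles as a block, against all 5 vehicle or the 4 h vehicle arrays, and without each array in turn. Leaving out the arrays of conflicting labels was chosen after seeing the data. Promoter sequences come from RefSeq (GRCm38.p6).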

Additional observations from a re-analysis of the deposited data

Results flagged for a closer look

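Several probe sets differed between 48 h and 24 h by a direct test of that difference (limma, adjusted over all tested probe sets). All 3 probe sets of Spop were higher at 48 h, by 0.72 (1416524_at), 1.33 (1416525_at) and 0.53 (1447827_x_at) on the log2 scale; the last call was lost in 7 of 16 alternatives, among them the replicate block (adjusted p = 0.1). Both probe sets of Arrb2 were higher, by 0.51 (1426239_s_at; lost in 4 of 16) and 0.74 (1451987_at), and so was Prkar1a 1425550_a_at, by 0.51. Both probe sets of Smo were lower at 48 h, with differences of -0.86 (1427048_at) and -0.75 (1427049_s_at). Between the resistant groups, Spop 1416524_at was lower at 160 mg/kg than at 40 mg/kg, with a difference of -0.54 that was lost in 8 of 15 alternatives. With 2 or 3 arrays a group, no array was tested for standing apart.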

How the results depend on the processing

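Of the values of the 24 tested probe sets in 9 comparisons under an alternative, 3341 kept their side of the threshold, 104 lost a call, 31 gained one and 1 turned: Gsk3b 1454958_at at 48 h, at -0.03 (-0.0335) against the 4 h vehicle. The choice of vehicle moved most counts. Against all 5 vehicle arrays, 1 of the 10 genes was called at 4 h, 3 at 8 h and 1 in resistant tumours at 40 mg/kg. The SE against all 5 comes from spread within groups and leaves out any gap between the 2 vehicle groups. With the 4 h vehicle 3 were called at 24 h and 4 at 48 h. Leaving out 1 array at a time gave 0 to 1 called genes at 8 h (0 without 4 h vehicle array 2), 0 to 1 in resistant tumours at 40 mg/kg (1 without its array 1 or 3), 0 to 1 at 160 mg/kg (1 without its array 1) and 0 to 1 between the resistant groups (0 without array 2 or 3 of either). That last call, of Spop, was also absent (0) under eBayes without trend, with only the compared arrays, with the identifier run as a block and with the replicate block. Same-numbered arrays did not deviate together (correlations of -0.104 to 0.077). With 2 or 3 such pairs a comparison, this shows no sign of pairing by number but cannot exclude it. The replicate block moved no other count of called genes by over 1.5 times. The causes were not tested. The 8 h arrays all have conflicting labels, so 8 h has no value without them; the counts without such arrays were 0 at 4 h, 5 at 24 h and 2 for 48 h over 24 h. Probe sets near the 40th percentile limit what can be said of Stk36 and the dim probe sets of Sufu. Kif7 was dim too, at 39.6 to 111.3, but above the 40th percentile, which was 18.7 to 28.6 over the arrays.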

Other observations

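Ift122, a subunit of the complex that carries cargo back from the tip of the cilium, averaged 248.9 ± 35.3 at 48 h and 472.6 ± 57.6 at 24 h (SD, n = 3 each; -0.89, limma adjusted p = 9.1e-06). Dyrk1a, a kinase reported to act on GLI proteins, averaged 176.4 ± 18.9 at 48 h and 376.4 ± 11.7 in vehicle (SD, n = 3 each; -1.03, limma adjusted p = 3.5e-06). Of 48 tested transducers, 4 were higher and 12 lower at 48 h than at 24 h, beside 11.9% of all genes higher and 13.2% lower.

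The co-receptor gene Boc averaged 128.3 ± 31.9 at 48 h and 1195 ± 83.2 in vehicle (SD, n = 3 each; -3.09, limma adjusted p = 8.6e-15), and 1268 ± 175 in resistant tumours at 40 mg/kg, against 128.3 at 48 h (3.17, limma adjusted p = 5.9e-15). Hhip and Sfrp1 separated the resistant groups: Sfrp1 averaged 940.4 ± 435 at 160 mg/kg and 314.5 ± 163 at 40 mg/kg (SD, n = 3 each; 1.53, limma adjusted p = 0.0019), and Hhip 147.7 ± 68.4 and 52.2 ± 42.5 (SD, n = 3 each; 1.34, limma adjusted p = 0.042).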
